A study of Mus musculus with 36 samples.

Results

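The USP genes encode ubiquitin-specific proteases, the largest family of deubiquitinases in mammals. Members were taken by gene symbol, as Usp followed by digits and at most 1 letter, or Uspl1, with the interferon-induced gene Usp18 left out. The deposited table of 16439 genes held 47 such genes, and 42 of them reached the level required for testing. RNA was sequenced from mouse bone marrow-derived macrophages, grown from bone marrow for 7 days with supernatant of L929 cells as the source of M-CSF. The cells were wild type (WT) or carried the D310N form of Tnip2, which encodes ABIN2, a protein that binds ubiquitin chains (the table's header writes the mutation as D309N). Cells of both genotypes were sampled without stimulation (0 min) or after lipopolysaccharide (LPS) at 100 ng/ml, a ligand of Toll-like receptors, for 30, 60, 120, 240 or 360 min, and each of the 12 groups held 3 libraries. The age and sex of the mice are not given in the sources used here, nor is it said whether the 3 libraries came from separate mice, so p-values measure only the spread between these libraries.

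USP enzymes cut ubiquitin from proteins or trim ubiquitin chains, which can spare a protein from the proteasome, end a signal carried by a chain, or return ubiquitin for reuse. In macrophages, LPS signalling runs through chains built on adaptor proteins and kinases, and several USP enzymes are known to remove or remodel them. Others act on histones, DNA repair proteins, endosomes or the proteasome itself.

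Values are log2 normalised expression as deposited. A log2 difference of 1 is a doubling, and each difference is given with its standard error (SE) and an adjusted p from limma's moderated test with Benjamini-Hochberg adjustment over 11656 genes. A gene was called changed at an adjusted p under 0.05. In cultures measured in bulk, fewer cells expressing a gene and less RNA per cell cannot be told apart. The 8 macrophage markers examined were all tested, with mean log2 values from 10.19 to 17. Of other lineages, 1 of 3 T cell, 1 of 4 B cell, 2 of 6 neutrophil, 2 of 4 dendritic cell, 1 of 4 fibroblast and 0 of 2 erythroid markers in the table reached the testing level. The WT 360 min replicate 1 library stood apart: 5.65% of its genes lay more than 0.5 from their group mean, against at most 1.73% in any other library. Several results at 360 min that change without it are given both ways.

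RefSeq (GRCm38.p6) windows of 250 bases before the start site were found for 35 of the 47 members. Their median GC content was 65.2%, against 52.0% for all 27025 genes with a window, and their median number of CG pairs was 24, against 6. The fewest CG pairs were in Usp50 (2) and the most in any member were 55. The windows of a strong late riser (Usp12), of another late riser (Usp15) and of the member with the largest fall (Usp2) are shown 5′ to 3′ with CG pairs in capitals. The Usp12 stretch lies on the minus strand at chr5:146795007-146795206 and ends 50 bases before the start, where an annotated exon of the gene begins. The Usp15 window is on the minus strand at chr10:123197020-123197269. The Usp2 window is on the plus strand at chr9:44084670-44084919, inside the longer Usp2 gene model of GENCODE.
Usp12: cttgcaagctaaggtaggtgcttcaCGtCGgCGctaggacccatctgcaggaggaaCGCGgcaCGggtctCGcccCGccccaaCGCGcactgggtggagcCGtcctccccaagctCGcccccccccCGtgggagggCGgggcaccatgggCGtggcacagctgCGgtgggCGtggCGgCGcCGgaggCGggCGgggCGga
Usp15: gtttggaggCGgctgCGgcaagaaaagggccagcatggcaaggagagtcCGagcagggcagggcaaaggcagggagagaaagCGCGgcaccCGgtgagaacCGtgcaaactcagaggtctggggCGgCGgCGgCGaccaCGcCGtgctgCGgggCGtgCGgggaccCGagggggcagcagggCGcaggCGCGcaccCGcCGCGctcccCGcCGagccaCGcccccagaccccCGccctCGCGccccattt
Usp2: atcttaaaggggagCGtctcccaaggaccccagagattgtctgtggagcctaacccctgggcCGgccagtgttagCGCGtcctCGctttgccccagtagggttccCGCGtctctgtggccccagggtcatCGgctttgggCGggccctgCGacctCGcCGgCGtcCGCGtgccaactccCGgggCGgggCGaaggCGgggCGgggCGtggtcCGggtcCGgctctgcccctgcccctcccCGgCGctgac
The whole 250-base windows hold 30 CG pairs for Usp12, 29 for Usp15 and 25 for Usp2, all above the median of all genes. Motifs were searched on both strands of the 250-base windows. The NF-kB consensus was in 1 of the 35 member windows, that of Usp27x (2.86%, against 4.46% of all windows). The cyclic AMP element TGACGTCA was in 0 member windows, against 1.77% of all. The AP-1 letters TGANTCA were in 2 member windows, those of Usp31 and Usp38 (5.71%, against 7.82% of all). The interferon response letters GAAANNGAA were in 2, those of Usp11 and Usp49 (5.71%, against 8.18%). The Ets letters CCGGAAGT were in 3, those of Usp11, Usp16 and Usp30 (8.57%, against 3.23%). No match overlapped one of another motif, and a match is only a run of letters that says nothing of binding.

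The first question was how the family responded to LPS in WT macrophages. At 240 min, 23 of the 42 tested members had risen and 11 had fallen. The risers were led by Usp25, Usp12, Usp42 and Usp15, and the falls at that time by Usp35, Usp2, Usp48 and Usp20. The response built up late: 2 members were called at 30 min, 18 at 60 min, 29 at 120 min, 34 at 240 min and 33 at 360 min. Among all tested genes, 6.09%, 37.2%, 66.6%, 80% and 80.4% were called at these times, so the share of members called was close to that of all genes from 60 min on. Of the 18 members called at 60 min, 7 were higher and 11 lower, beside 20.1% and 17.1% of all tested genes. The 29 calls at 120 min split into 15 higher and 14 lower (32.4% and 34.2% of all genes). The all-gene shares were 39.6% higher and 40.4% lower at 240 min. For 360 min, 22 members were higher and 11 lower, beside 39.3% and 41% of all genes. The members had a median change of 0.18 at 240 min, where all tested genes had -0.02, and of 0.25 at 360 min, where all had -0.03. These splits depended on the scaling: after quantile normalisation the calls were 1 higher and 15 lower at 60 min and 18 higher and 14 lower at 240 min, and the 240 min median of the members was 0.01. Leaving out WT 0 min replicate 3 left 11 calls at 60 min, 2 of them higher, and without WT 360 min replicate 1 the 360 min split stayed at 22 and 11. Without that library 5 members were called at 30 min, and without WT 0 min replicate 1 or WT 30 min replicate 3 only 1 was.

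**Figure D1:**
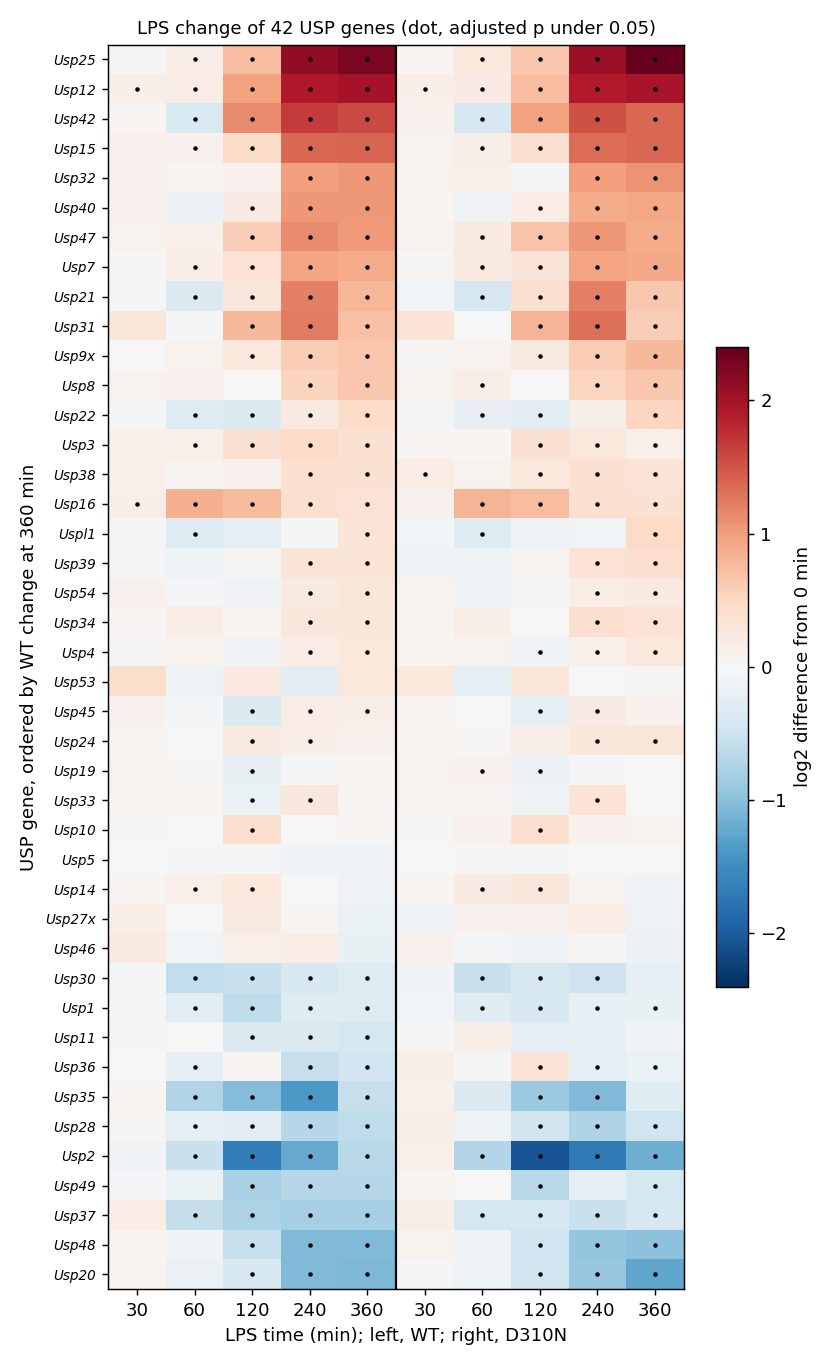
Log2 difference from 0 min (colour) of the 42 tested USP genes (rows, ordered by the WT change at 360 min) at each LPS time in min (columns), in WT on the left and D310N on the right; a dot marks an adjusted p under 0.05. Most strong colours stand at 120 min and later, and Usp25 at the top reached 2.25 in WT and 2.39 in D310N at 360 min.

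Members followed 4 courses in WT. In 20 members every called change was a rise, in 12 every called change was a fall, 6 were called in both directions at different times (Usp21, Usp22, Usp33, Usp42, Usp45 and Uspl1), and 4 were called at no time. The same classes took 39%, 43%, 10.3% and 7.75% of all tested genes. The largest called change was over 1 in size in 13 members. This count served to choose members to describe, and no matching share over all tested genes was computed. The sizes depended on the processing. Over the alternative fits (other scalings, filters, weights and libraries left out) the WT 360 min rise of Usp15 went down to 0.84. That of Usp32 went down to 0.81, while that of Usp25 stayed at 1.51 or more. Positions below are on GRCm38 from GENCODE M21.

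Among members known from immune and other signalling, 8 of 12 tested were higher at 240 min and 3 were lower (6 and 4 after quantile normalisation). Usp25 (chromosome 16, 77013706 to 77116780), a protease that acts on TRAF adaptor proteins, had values of 11.31, 11.32 and 11.37 in the 3 WT libraries at 0 min. It stood at 13.43, 13.44 and 13.50 at 240 min and at 13.41, 13.64 and 13.71 at 360 min. All libraries at both late times lay above all unstimulated ones, without overlap. The rise was 0.74 ± 0.05 at 120 min (adjusted p = 7.07e-14) and 2.25 ± 0.05 at 360 min (adjusted p = 5.65e-27), a 4.77-fold change. The SE does not cover the scaling: over the alternative fits the 360 min value ran from 1.51 to 2.34. At 60 min the main value was 0.15, but it was -0.06 after quantile normalisation. In D310N cells the Usp25 libraries went from 11.22, 11.23 and 11.23 to 13.58, 13.58 and 13.67 at 360 min. Again no library overlapped, and the rise was 2.39 ± 0.05 (adjusted p = 1.18e-27).

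Usp12 (chromosome 5, 146734809 to 146795006) needs the WD40 proteins Wdr48 and Wdr20 for full activity. Its WT libraries read 10.34, 10.35 and 10.40 before LPS, 11.29, 11.34 and 11.37 at 120 min, then 12.31, 12.34 and 12.40 by 360 min. The 3 levels were separate at these times, and Usp12 was the only member called at all 5 LPS times in both genotypes, although its 60 min calls were lost after quantile normalisation (WT 0.04, adjusted p = 0.361). It rose by 0.14 ± 0.03 already at 30 min (adjusted p = 0.00757) and by 1.99 ± 0.03 at 360 min (adjusted p = 1.08e-30), which is 3.97-fold. Over the alternative fits its 360 min value in WT ran from 1.435 to 2.008. Its close relative Usp46, which shares the same partners, was called at no time in WT, with all 36 libraries between 7.03 and 7.81. Without WT 360 min replicate 1 it was called in WT at 3 times (0.21 at 30 min, 0.18 at 240 min and -0.35 at 360 min).

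Usp15 (chromosome 10, 123105006 to 123196995), a protease with substrates in TGF-beta and NF-kB signalling, stood at 10.59, 10.60 and 10.63 in unstimulated WT cells. At 240 min its libraries read 11.96, 12.005 and 12.01, all above the start. The rise was 1.39 ± 0.04 (adjusted p = 7.75e-24), and the value at 360 min was 1.40. Over the alternative fits its 240 min value ran from 0.818 to 1.402. Its paralog Usp4 rose by 0.18 at 240 min and 0.26 at 360 min, but these values were -0.39 and -0.31, called lower, after quantile normalisation. Usp31 (chromosome 7, 121642021 to 121707253), reported to act on NF-kB signalling, went from 9.09, 9.10 and 9.21 to 10.30, 10.41 and 10.44 at 240 min. These groups did not overlap, and the rise was 1.25 ± 0.13 (adjusted p = 5.21e-10). At 360 min the WT libraries of Usp31 read 9.50, 9.55 and 10.46, the highest being the replicate 1 library that stood apart. The rise of 0.70 at that time was 0.39 without it (adjusted p = 3.14e-05).

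Falls in the signalling group were those of Usp2, Usp20 and Usp48. Usp2 (chromosome 9, 44067021 to 44095627), whose transcript cycles with the circadian clock in many tissues, read 4.71, 4.94 and 5.01 at 0 min and 3.11, 3.11 and 3.48 at 120 min in WT. It was low at 120 min in every library, with partial return to 4.04, 4.17 and 4.47 at 360 min. The fall at 120 min was -1.65 ± 0.19 in WT (adjusted p = 4.13e-09) and -2.07 ± 0.19 in D310N (adjusted p = 3.6e-11). These values lie near the testing floor (10 on the linear scale), where the unstated log2 transformation may compress differences. Usp48 (chromosome 4, 137593755 to 137658537), a nuclear protease reported to act on RelA, fell from 9.95, 10.06 and 10.08 to 8.90, 8.97 and 9.03 at 240 min in WT. The groups did not overlap, and the change was -1.07 ± 0.05 (adjusted p = 1.17e-19). Usp20 (chromosome 2, 30982279 to 31023586), which acts on beta-adrenergic receptors among other substrates, also fell: 7.32, 7.37 and 7.40 at 0 min became 6.19, 6.21 and 6.47 at 360 min. The change was -1.07 ± 0.09 (adjusted p = 7.23e-13).

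**Figure D2:**
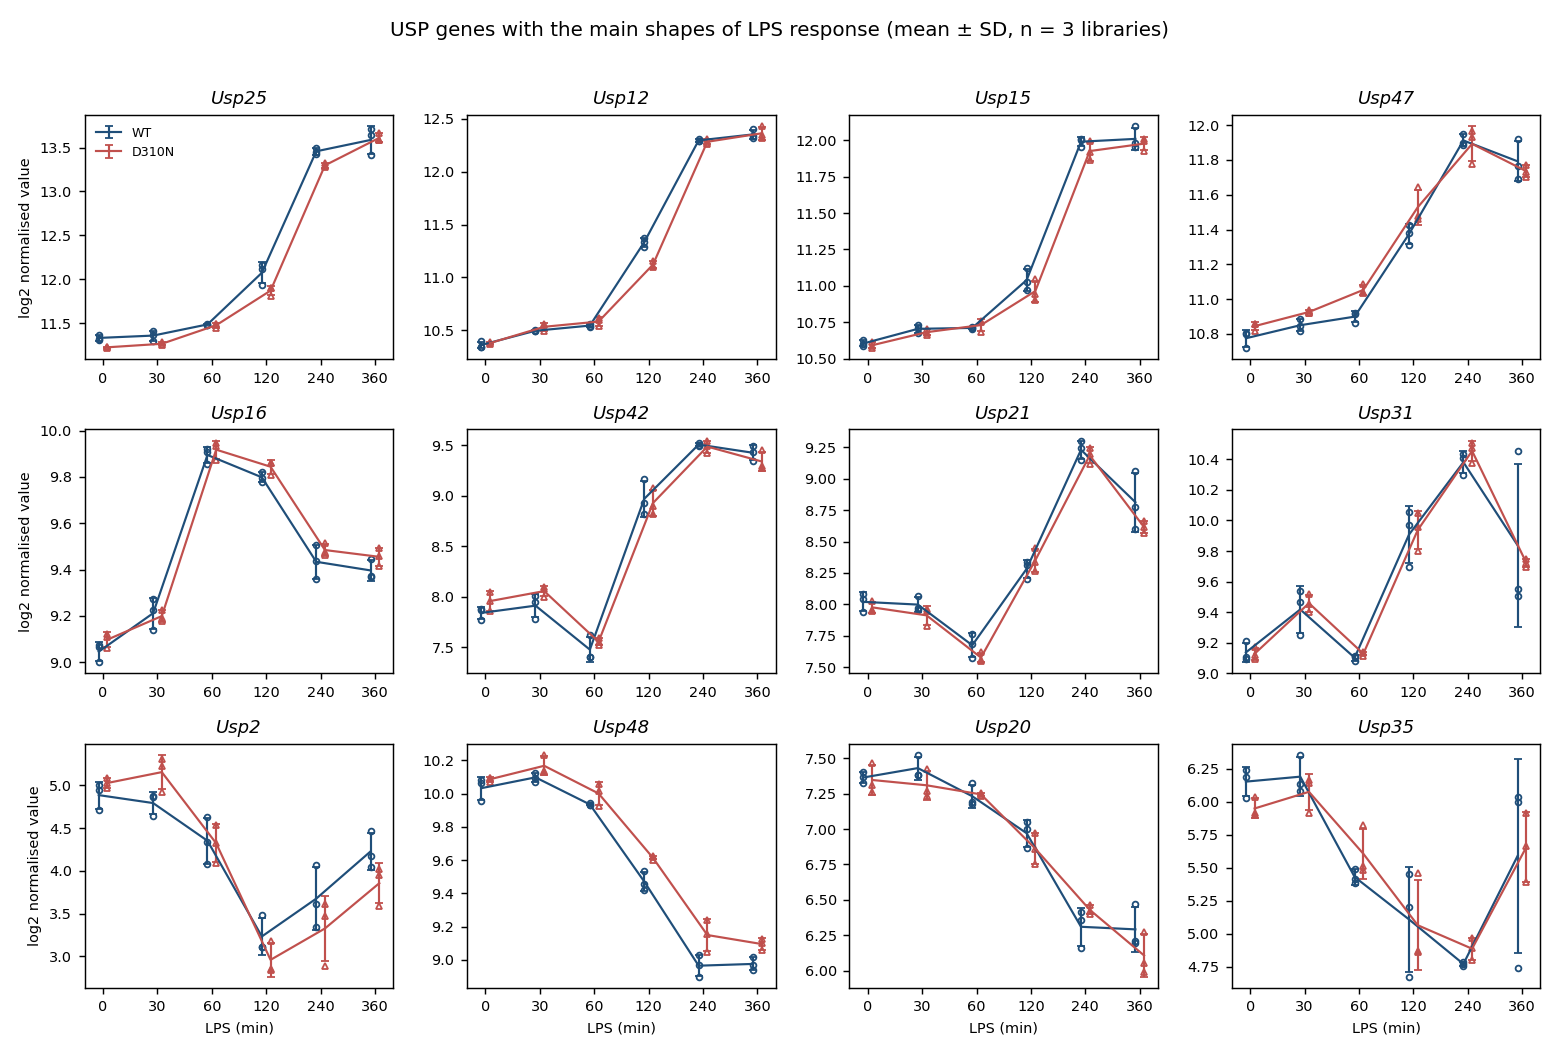
Log2 normalised value (vertical axes, which differ between panels) of 12 USP genes against LPS time (min, equally spaced) in WT (blue circles) and D310N (red triangles); points are libraries, lines join group means and bars are SD (n = 3). Usp25, Usp12, Usp15 and Usp47 rose late, Usp16 was highest at 60 min, Usp42 and Usp21 dipped at 60 min before rising, and the bottom row fell.

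Among the 15 tested members known from chromatin, DNA repair and the cell cycle, calls were mixed, with 8 higher and 6 lower at 240 min in WT. At 60 min this group had 3 higher and 7 lower. Usp42 (chromosome 5, 143710325 to 143732280), a p53 and histone H2B deubiquitinase, moved both ways. Its WT libraries read 7.77, 7.87 and 7.88 before LPS, 7.40, 7.41 and 7.62 at 60 min, then 9.49, 9.51 and 9.53 by 240 min. All 3 libraries were below the start at 60 min and above it at 240 min. The dip was -0.36 ± 0.08 (adjusted p = 0.000263) and the later rise 1.67 ± 0.08 (adjusted p = 5.97e-19). D310N cells had the same order of values, with -0.40 at 60 min and 1.53 at 240 min.

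Usp21 (chromosome 1, 171281945 to 171287991), which removes ubiquitin from histone H2A and from RIPK1, dipped and rose in the same way. Its WT libraries read 7.94, 8.04 and 8.08 before LPS, 7.58, 7.68 and 7.77 at 60 min, then 9.15, 9.24 and 9.30 by 240 min. The groups did not overlap, and the changes were -0.35 ± 0.08 at 60 min (adjusted p = 0.000419) and 1.21 ± 0.08 at 240 min (adjusted p = 2.03e-15). Usp16 (chromosome 16, 87454703 to 87483517), a histone H2A protease needed for passage through mitosis, was described after its values were seen because it was early. It stood at 9, 9.06 and 9.07 at 0 min and at 9.86, 9.91 and 9.92 at 60 min in WT. The 60 min libraries were all higher, the rise was 0.85 ± 0.04 (adjusted p = 1.08e-17), and it fell back to 0.35 above the start at 360 min. The next largest called change at 60 min in WT was the -0.72 of Usp35.

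Usp47 (chromosome 7, 112023504 to 112111661), which acts on DNA polymerase beta, rose by 1.14 ± 0.05 at 240 min in WT (adjusted p = 1.83e-19). Over the alternative fits this value ran from 0.551 to 1.152. Usp7, which stabilises Mdm2 and p53 and is also known from NF-kB control, rose by 0.94 ± 0.05 at 240 min (adjusted p = 6.63e-18) and 0.94 in D310N. Its early rise of 0.15 in WT at 60 min was -0.03 after quantile normalisation. The falls in this group were smaller. Usp37, a cyclin A protease, went from 8.09, 8.12 and 8.14 to 7.25, 7.33 and 7.36 at 240 min in WT, a change of -0.80 ± 0.07 (adjusted p = 7.26e-12). Usp1, which removes ubiquitin from PCNA and FANCD2, reached its lowest WT level at 120 min with -0.61 ± 0.06 (adjusted p = 1.57e-10). Usp28, Usp49, Usp11 and Usp36 also had only falls called in WT, with largest falls from -0.42 (Usp11) to -0.77 (Usp49). The Usp11 falls were lost after quantile normalisation, which left -0.11 at 120 min and -0.045 at 360 min and reversed the 240 min value to 0.007.

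Of 10 tested members tied to the proteasome, ubiquitin recycling, membranes or organelles, 4 were higher and 2 lower at 240 min in WT, which became 2 higher and 5 lower after quantile normalisation. Usp32, a membrane-associated protease, went from 9.29, 9.39 and 9.45 at 0 min to 10.33, 10.42 and 10.51 at 360 min. The groups were separate and the rise was 1.05 ± 0.06 (adjusted p = 7.6e-16). Usp35 (chromosome 7, 97309380 to 97332020) went from 6.03, 6.19 and 6.24 to 4.75, 4.77 and 4.79 at 240 min, a change of -1.38 ± 0.22 (adjusted p = 9.5e-07). At 360 min its WT libraries read 4.74, 5.999 and 6.03, the low one being replicate 1. The change of -0.56 there (adjusted p = 0.0192) was -0.14 without that library (adjusted p = 0.465). Usp30, a mitochondrial protease that opposes mitophagy, fell by 0.60 at 60 min (adjusted p = 2.08e-05), and its 360 min value of -0.30 was -0.15 without the same library (adjusted p = 0.159). Usp14, the proteasome-bound protease, rose by 0.25 ± 0.05 at 120 min in WT (adjusted p = 5.53e-05), a value that was -0.03 after quantile normalisation. Usp8, which sorts receptors at endosomes, rose by 0.53 at 240 min, but was -0.08 after quantile normalisation. It overlaps Usp50 on the opposite strand of chromosome 2, and no source used here says that reads were counted by strand, so its value is uncertain.

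Of the 4 tested members with weak or unusual protease activity, Usp39, Usp54 and Uspl1 had small called changes, while Usp53 had none with all libraries in. Usp39, a splicing factor without protease activity, rose by 0.32 at 240 min and Usp54 by 0.22. Uspl1, a SUMO protease, was -0.31 at 60 min and 0.31 at 360 min, both called. Its WT libraries at 360 min read 8.36, 9.07 and 9.20, the low one being replicate 1. Without it the 360 min change was 0.57 (adjusted p = 1.94e-10), while without replicate 2 or 3 the call was lost (adjusted p = 0.0938 and 0.194). The 60 min call was lost without WT 0 min replicate 2 or WT 60 min replicate 3 (adjusted p = 0.0943 and 0.104). Usp40 rose by 1.05 ± 0.06 at 360 min (adjusted p = 4.44e-16), with libraries of 8.27, 8.36 and 8.44 before LPS against 9.27, 9.47 and 9.47 at that time. The 4 members called at no LPS time in WT were Usp5, Usp27x, Usp46 and Usp53. Usp5, which takes apart free ubiquitin chains, kept within 10.74 to 11.002 over all 36 libraries, while Usp27x ranged from 5.16 to 6.03 and Usp53 from 4.90 to 6.07. Of these 4, Usp27x alone had no call in WT when WT 360 min replicate 1 was left out: Usp53 was then 0.43 at 30 min (adjusted p = 0.0252) and 0.52 at 360 min (adjusted p = 0.00128), and Usp5 was -0.09 at 240 min (adjusted p = 0.0473).

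The X-linked Usp9x (13071498 to 13173328), which acts in receptor trafficking and cell polarity, read 11.78, 11.95 and 11.98 at 0 min and 12.45, 12.57 and 12.70 at 360 min in WT. The rise was 0.67 ± 0.09 (adjusted p = 2.65e-08), but the value was -0.07 after quantile normalisation. Its Y-linked copy Usp9y was under the testing level, with values from -1.52 to -0.74. The other untested members were Usp43 (0.17 to 1.67), Usp44 (-0.48 to 0.28), Usp50 (-1.70 to -1.04) and Usp51 (-3.75 to -3.55).

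The second question was whether D310N cells gave the same LPS response. The responses of the members were alike in the 2 genotypes, whose libraries are separate. In D310N, 2, 17, 29, 31 and 30 members were called at 30, 60, 120, 240 and 360 min, with 6.64%, 38.5%, 64%, 79.1% and 80% of all genes. The calls at 60 min were 9 higher and 8 lower (21.3% and 17.2% of all genes), and those at 120 min 16 and 13 (31.9% and 32.1%). For 240 min they were 22 higher and 9 lower (39% and 40.2%), and for 360 min 22 and 8 (39% and 41%). After quantile normalisation these 4 splits, from 60 to 360 min, were 1 higher and 12 lower, 15 and 19, 17 and 13, and 18 and 11. Leaving out WT 360 min replicate 1 made the 360 min split 22 and 10. Members called in the same direction in both genotypes numbered 14 at 60 min, 26 at 120 min, 31 at 240 min and 29 at 360 min. The 31 members at 240 min were 91.2% of those called in WT and 100% of those called in D310N. The time of the highest group mean was the same in both genotypes for 31 of 42 members. Neither the shared calls nor the shared times were computed for all tested genes, so they do not set the members apart from other genes.

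A test of the difference between the responses named 3 members. The joint test over the 5 LPS times called Usp12, Usp37 and Usp3, with 4.84% of all tested genes called and 7 members at an unadjusted p under 0.05. Single times gave 1 call at 120 min (Usp12, against 0.935% of all genes) and 2 at 360 min (Usp3 and Usp37, against 2.01%). At 30, 60 and 240 min limma called 0 members (0%, 0.0686% and 1.95% of all genes), and 0, 0 and 4 had an unadjusted p under 0.05. Without WT 360 min replicate 1, Usp36 was called at 240 min (0.33, adjusted p = 0.0158) and Usp37 also at 120 min (0.35, adjusted p = 0.0267). A member called in 1 genotype only, such as Usp11 from 120 min on in WT, is thus not shown to differ in response: its joint test was not passed.

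Usp12 differed by timing. At 120 min its libraries read 11.29, 11.34 and 11.37 in WT and 11.10, 11.11 and 11.16 in D310N. All D310N libraries were below all WT libraries, while at 0 min (10.37, 10.38 and 10.39 in D310N) and at 360 min (12.31, 12.34 and 12.43) the ranges of the genotypes overlapped. The response at 120 min was 0.97 ± 0.03 in WT and 0.74 ± 0.03 in D310N, a difference of -0.23 ± 0.05 (adjusted p = 0.00827). The joint test gave an adjusted p of 0.00326.

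Usp37 fell less in D310N cells. Its values were 7.15, 7.33 and 7.49 in WT and 7.59, 7.61 and 7.63 in D310N at 360 min, from 8.09 to 8.14 and 7.93 to 8.04 at 0 min. The mutant libraries were lower at the start and higher at the end. The change at 360 min was -0.79 ± 0.07 in WT and -0.39 ± 0.07 in D310N, a difference of 0.40 ± 0.10 (adjusted p = 0.0318, and 0.0113 in the joint test). The 360 min call was lost without any 1 of 8 libraries of the groups compared (all 3 WT 0 min, all 3 D310N 360 min, and D310N 0 min replicates 1 and 3), with adjusted p up to 0.1.

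Usp3, a histone H2A and H2B protease, rose less in D310N cells. Its libraries read 8.96, 9.07 and 9.10 in WT and 9.15, 9.19 and 9.23 in D310N at 0 min, and 9.36, 9.43 and 9.47 against 9.27, 9.27 and 9.40 at 360 min. The mutant was higher at the start and overlapped WT at the end. The rise at 360 min was 0.37 ± 0.05 in WT and 0.13 ± 0.05 in D310N (the latter 0.001 after quantile normalisation), a difference of -0.25 ± 0.07 (adjusted p = 0.0434, joint test 0.0444). Both p-values lay just under the threshold. The joint call was lost in 28 of 44 alternatives and the 360 min call in 17, among them leaving out WT 360 min replicate 1 (adjusted p = 0.0523), which left Usp37 as the 1 member called at 360 min.

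**Figure D3:**
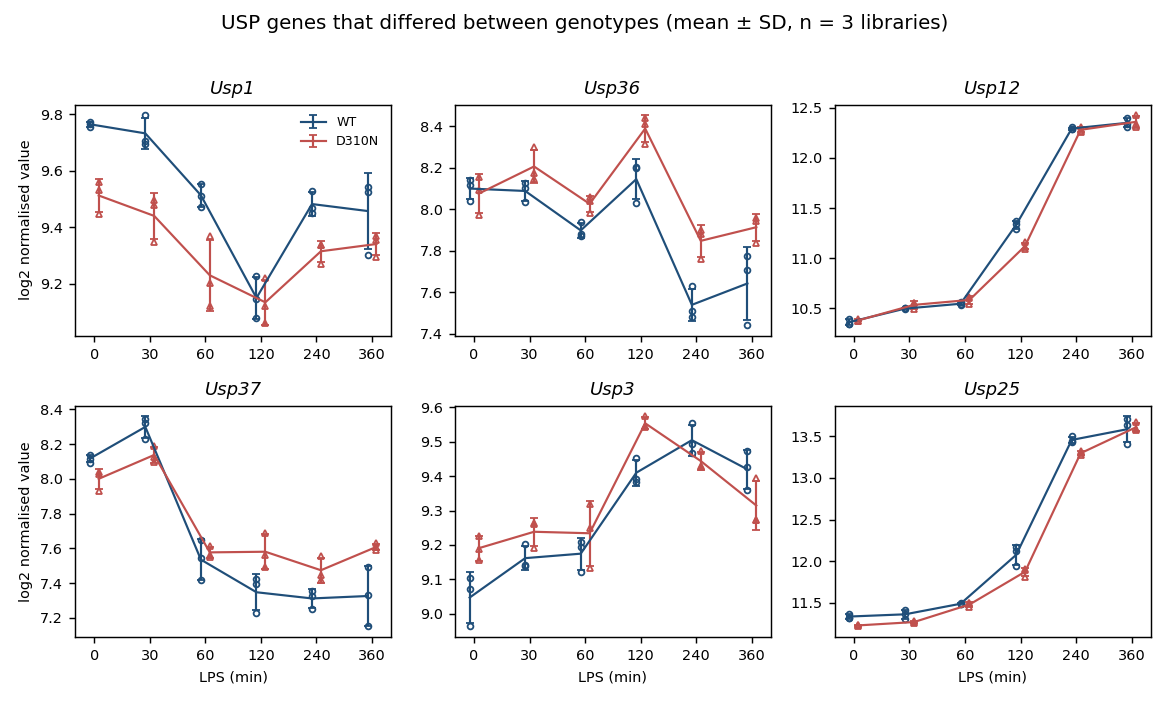
Log2 normalised value (vertical axes, which differ between panels) of 6 USP genes against LPS time (min, equally spaced) in WT (blue circles) and D310N (red triangles); points are libraries, lines join means and bars are SD (n = 3). Usp1 was lower in D310N from 0 to 60 min, Usp36 was higher from 120 to 360 min, and Usp12 was lower at 120 min by 0.21.

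The third question was whether levels differed between genotypes at a given time. Differences were small: with all libraries in, the largest called one was 0.35, for Usp11 at 360 min, and none reached 1. That Usp11 call was lost with library weights (adjusted p = 0.0578), with only the groups compared (adjusted p = 0.229), and without D310N 360 min replicate 1 (adjusted p = 0.0864) or 2 (adjusted p = 0.0733). The members called numbered 2 at 0 min, 1 at 30 min, 3 at 60 min, 7 at 120 min, 6 at 240 min and 4 at 360 min. Among all tested genes 10.7%, 12.2%, 12.9%, 17.7%, 17% and 16.3% were called. In all, 12 members were called at 1 or more times and 30 at none, a count for which no share of all tested genes was computed. These small counts rested on single libraries: leaving out WT 60 min replicate 1 or D310N 60 min replicate 3 left 1 call at 60 min. The 7 calls at 120 min became 3 without WT replicate 2 and 2 without D310N replicate 3. The 6 calls at 240 min became 3 when WT replicate 2 or 3 was dropped and 2 when D310N replicate 1 or 3 was. For 360 min there were 9 without WT replicate 2 and 7 without WT replicate 3. Without the outlying WT replicate 1 there were 4, but not the same ones. Usp46 (0.37, adjusted p = 0.000279) and Usp53 (-0.48, adjusted p = 0.0154) were then called, while Usp36 and Usp37 were not.

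Averaged over the 6 times, 16 members were higher in D310N and 2 lower. Among all tested genes 48.1% were called, 22.7% higher and 25.4% lower, and the median difference of the members was 0.025, against -0.001 for all genes. The 16 higher members were led by Usp36 (0.17), Usp34 (0.16), Usp24 (0.14), Usp11 (0.13) and Usp9x (0.12). When each genotype was reduced to 1 mean per replicate number, 9 members were called, 7 higher and 2 lower, and Usp11 was no longer among them (adjusted p = 0.0584). The share of all tested genes called in that fit was not computed.

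**Figure D4:**
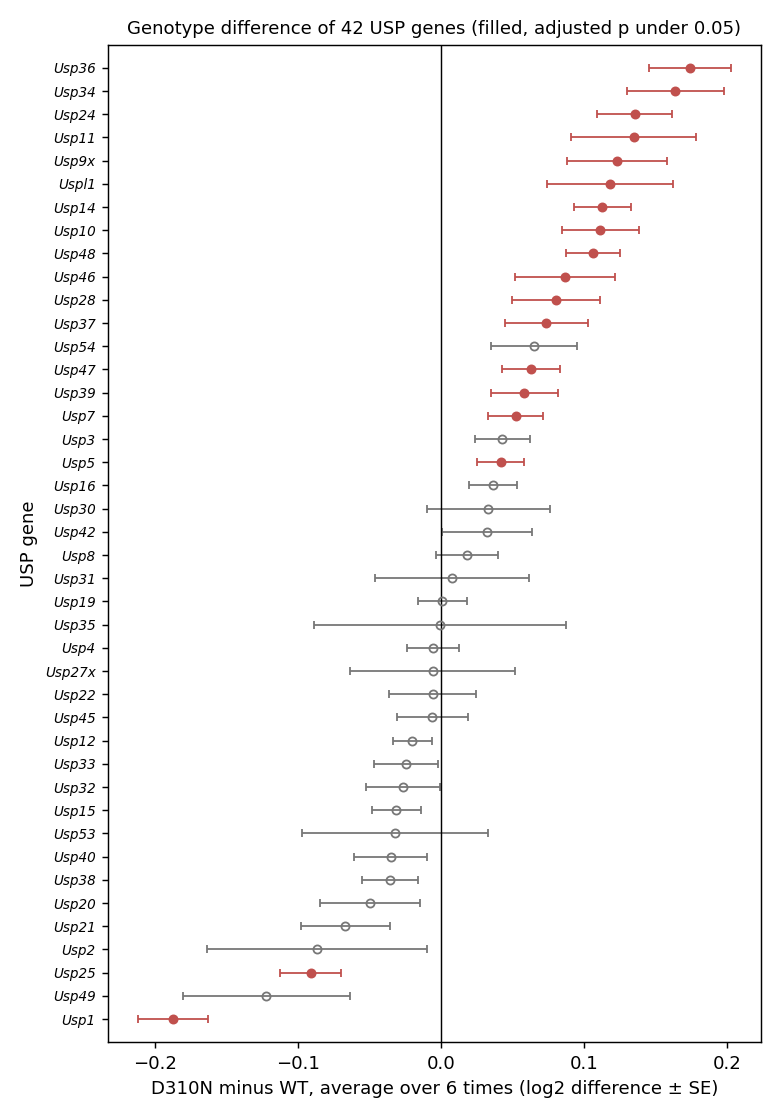
D310N minus WT, averaged over the 6 times, as a log2 difference with SE (horizontal axis) for the 42 tested USP genes (rows); filled red points had an adjusted p under 0.05. The values run from -0.19 for Usp1 to 0.17 for Usp36.

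Usp1 (chromosome 4, 98923810 to 98935543) was lower in D310N before and early after LPS. At 0 min its libraries read 9.76, 9.77 and 9.77 in WT and 9.45, 9.53 and 9.56 in D310N. At 30 min they read 9.70, 9.71 and 9.80 in WT and 9.35, 9.48 and 9.50 in D310N. Every D310N library was below every WT library at both times and at 60 min. The differences were -0.25 ± 0.06 at 0 min (adjusted p = 0.00465), -0.29 ± 0.06 at 30 min (adjusted p = 0.000865) and -0.28 ± 0.06 at 60 min (adjusted p = 0.00122). At 120 min the groups overlapped, and over all times the difference was -0.19 ± 0.02 (adjusted p = 1.74e-07). All 3 single-time calls were kept in each of 45 alternatives. Cell cycle genes were also lower in D310N: 20 of 25 were called lower at 0 min, with a median difference of -0.76. Their summed level, as the mean of 25 log2 values per library, was 9.39 to 9.43 in WT and 8.75 to 8.85 in D310N at 0 min. At 360 min it was 7.37 to 8.02 in WT, the highest in the replicate 1 library, and 7.18 to 7.30 in D310N. Its part in the Usp1 and Usp37 results was not tested.

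Usp36 (chromosome 11, 118259651 to 118290244), a nucleolar protease that also acts on Myc, was higher in D310N late after LPS. At 240 min its libraries read 7.48, 7.51 and 7.63 in WT and 7.76, 7.88 and 7.90 in D310N. No library overlapped, and the difference was 0.31 ± 0.07 (adjusted p = 0.00258). It was 0.24 at 120 min (adjusted p = 0.0143) and 0.27 at 360 min (adjusted p = 0.00813). The 240 min call was kept in every alternative. The 120 min call was lost without WT replicate 2 (adjusted p = 0.107) or D310N replicate 3 (adjusted p = 0.0652), and the 360 min call without WT replicate 1 (0.17, adjusted p = 0.0739). The 360 min difference of Usp37 went the same way, from 0.28 (adjusted p = 0.00625) to 0.20 without that library (adjusted p = 0.0514). With only the groups compared, neither 360 min call was kept (adjusted p = 0.327 for Usp36 and 0.299 for Usp37).

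Usp25 was lower in D310N at 120 min, with 11.94, 12.12 and 12.17 in WT and 11.81, 11.90 and 11.90 in D310N. The groups were close but apart, and the difference was -0.20 ± 0.05 (adjusted p = 0.00588). Without WT 120 min replicate 1 it was -0.16 (adjusted p = 0.0615), and with only the groups compared the adjusted p was 0.0508. At 240 min it was -0.16 ± 0.05 (adjusted p = 0.0321), a call lost without any 1 of the 6 libraries compared. The mean log2 level of 25 type I interferon response genes was also lower in D310N, 12.66 to 12.78 in WT against 12.29 to 12.32 in D310N at 120 min and 13.98 to 14.03 against 13.86 to 13.88 at 240 min. Its part in the Usp25 result was not tested. Usp48, which fell under LPS, stayed 0.14 higher in D310N at 120 min and 0.19 ± 0.05 higher at 240 min (adjusted p = 0.00564). The 240 min call was lost without D310N replicate 3 (adjusted p = 0.0662), and the 120 min call (adjusted p = 0.0298) in 7 alternatives, among them leaving out any library compared except WT replicate 1 (adjusted p up to 0.133). Usp14 was 0.16 higher in D310N at both 60 min (adjusted p = 0.0263) and 240 min (adjusted p = 0.0244). The 60 min call was lost without WT replicate 1 or D310N replicate 3, and the 240 min call without replicate 1 or 3 of either genotype. Usp24 was 0.27 higher at 360 min (adjusted p = 0.00446), a call lost when only the groups compared were fitted (adjusted p = 0.103).

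Genes that work with the family gave a similar picture under LPS. Of 16 tested partner proteins of USP enzymes, 11 rose and 1 fell at 240 min in WT, with a median change of 0.24 against -0.02 for all genes, of which 39.6% rose and 40.4% fell. After quantile normalisation 8 of these partners were higher and 4 lower, with a median of 0.15 against -0.10 for all genes. Atxn7l1 (1.35 ± 0.06 at 240 min, adjusted p = 2.37e-19) and Atxn7 (1.02 ± 0.06, adjusted p = 1.53e-16) belong to the family of the ataxin that anchors Usp22 in the SAGA complex. The family did not move as 1: the largest called WT change of Atxn7l3 was a rise of 0.48 ± 0.06 at 360 min (adjusted p = 1.41e-08). That of Atxn7l2 was a fall, -0.68 ± 0.14 at 120 min (adjusted p = 8.36e-05). Usp22 itself moved from -0.31 at 60 min to 0.45 at 360 min, both called, but the 360 min value was 0.11 (adjusted p = 0.176) after quantile normalisation. Usp10 was called only at 120 min, with 0.39 ± 0.07 (adjusted p = 5.14e-06). The largest called WT change of its partner G3bp1 was at the same time, 0.651 ± 0.045 (adjusted p = 4.3e-14). That of G3bp2, a relative of G3bp1, was 1.21 ± 0.05 at 360 min (adjusted p = 4.64e-21).

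Of 38 tested deubiquitinases of other families, 20 rose and 11 fell at 240 min in WT, beside the all-gene shares given above for that time. Their median was 0.16, against 0.18 for the USP members and -0.02 for all genes. After quantile normalisation 16 were higher and 11 lower, with a median of 0.07. The other families held larger changes: Tnfaip3, which encodes A20, rose by 3.30 ± 0.06 at 60 min (adjusted p = 9.3e-30) and Zufsp by 3.19 ± 0.07 at 240 min (adjusted p = 2.54e-27). Otud1 rose by 2.26 ± 0.08 in WT and 1.57 ± 0.08 in D310N at 240 min, and its joint test of different responses gave an adjusted p of 2.51e-05. No USP member changed by as much as Zufsp or Tnfaip3, the largest being the 2.39 of Usp25 in D310N at 360 min. The interferon-induced Usp18 was left out of the members, so this comparison does not cover it.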

How the data were processed

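Single-end RNA sequencing (75-base reads) was analysed in 36 libraries. Per the submitters' processing notes, reads were processed with STAR 2.5.2a, RSEM 1.2.31 and DESeq2 1.10.1 on mm10. The deposited values are normalised log2 values, from -4.14 to 19.3; the transformation and the counting's use of strand are not given in the sources used here, and depth per library is unknown, so no counting intervals are given. Library medians ran from 6.83 to 7.2, and 0 library pairs were identical.

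From these values, 23 genes with date-like names were left out, and 11656 of 16416 genes with a back-transformed value of 10 or more in 3 or more libraries were tested. limma 3.58.1 in R 4.3.3 was fitted with 12 group means and an intensity trend (24 residual degrees of freedom), with two-sided p-values and Benjamini-Hochberg adjustment over all tested genes of a comparison. No pseudocount was added, because the values were already logs. The script was tested on simulated data. Members and gene lists were chosen with earlier results of these data known. Genes were named when the largest called LPS change in WT exceeded 1, when genotypes differed at 3 or more times or by 0.2 on average, when the responses differed, when no LPS time was called in WT, or when on a short list of known immune members. Role groups and partner lists came from general knowledge. Deviations of same-numbered libraries correlated by more than 0.1 in all 3 pairs only between D310N 120 min and 0 min (0.325, 0.373 and 0.131). In the other D310N comparisons with 0 min all 3 correlations were positive but at least 1 was no more than 0.1, and the labels give no shared origin. Alternatives were other scalings, filters and pseudocounts, library weights, a replicate block, fits of the compared groups alone and leaving out each library.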

Additional observations from a re-analysis of the deposited data

Results flagged for a closer look

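A total of 6 results on 3 genes were singled out because a test of the difference between the LPS responses of the genotypes was passed. For Usp12 the difference of responses (D310N minus WT) was -0.23 at 120 min, and the joint test gave an adjusted p of 0.00326 (limma). For Usp37 the difference was 0.40 at 360 min and the joint adjusted p was 0.0113. For Usp3 the difference was -0.25 at 360 min and the joint adjusted p was 0.0444.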

How the results depend on the processing

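Of the calls on single members, 153 of 225 LPS calls, 14 of 41 genotype calls and 3 of 6 calls of different responses were kept in every alternative. The joint test of Usp12 stayed between adjusted p-values of 0.000552 and 0.0234 and that of Usp37 between 0.000806 and 0.0272. Small genotype differences are therefore the least certain values, depth is unknown, and the unstated transformation limits the weakly expressed members Usp2, Usp35, Usp27x and Usp53.

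Counts of members with a genotype difference moved by more than 1.5 times as follows. Library weights gave 8 at 0 min, 4 at 30 min, 6 at 60 min, 10 at 240 min and 9 at 360 min, and 9 (WT) and 6 (D310N) for the 30 min LPS response and 8 for the joint test. Quantile normalisation gave 4, 2 and 6 at 0, 30 and 60 min. Fits of only the groups compared gave 2, 5, 2 and 0 at 30, 60, 120 and 360 min. Using 1 mean per replicate number gave 9 on average over times. No filter on low values gave 1 at 0 min and 1 for the different response at 360 min. The cause of these moves was not tested.

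Leaving out 1 library at a time gave 1 to 2 genotype calls at 0 min, 1 to 4 at 60 min, 2 to 8 at 120 min, 2 to 8 at 240 min and 3 to 9 at 360 min. For the LPS response in WT it gave 1 to 5 at 30 min and 11 to 21 at 60 min, and for D310N 1 to 3 at 30 min. The WT 30 min count was 1 without WT 0 min replicate 1 or WT 30 min replicate 3 and 5 without WT 360 min replicate 1, and the D310N count was 1 without D310N 0 min replicate 1 or D310N 30 min replicate 2 or 3. The WT 60 min count was 11 without WT 0 min replicate 3. At 0 min the call of Usp3 was lost without any 1 of 17 libraries. Different responses numbered 1 to 2 at 120 min (2 without WT 360 min replicate 1) and 0 to 3 at 360 min, and 1 member was called at 240 min without WT 360 min replicate 1.

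All 32 reversals came from quantile normalisation, which moved the WT 240 min median of the 3015 genes with a mean of at least 10 from 0.32 to -0.20. In WT they were Usp14 (-0.041 at 60 min, -0.031 at 120 min), Usp15 (-0.060 at 60 min), Usp25 (-0.059 at 60 min), Usp7 (-0.026 at 60 min), Usp11 (0.007 at 240 min), Usp22 (-0.105 at 240 min), Usp24 (-0.038 at 120 min, -0.223 at 240 min), Usp34 (-0.160 at 240 min, -0.154 at 360 min), Usp4 (-0.388 at 240 min, -0.312 at 360 min), Usp45 (-0.024 at 360 min), Usp8 (-0.077 at 240 min) and Usp9x (-0.183, -0.114 and -0.065 from 120 to 360 min). In D310N they were Usp14 (-0.007 at 120 min), Usp15 (-0.031 at 60 min), Usp19 (-0.074 at 60 min), Usp24 (-0.125 at 240 min, -0.129 at 360 min), Usp34 (-0.079 at 240 min, -0.135 at 360 min), Usp4 (-0.402 at 240 min, -0.306 at 360 min), Usp7 (-0.027 at 120 min), Usp8 (-0.042 at 60 min, -0.064 at 240 min) and Usp9x (-0.190 at 120 min, -0.093 at 240 min).

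The replicate block, for numbers that share no stated origin, gave 35 calls in WT at 240 min and 35 at 360 min and 19 on average between genotypes, and moved no count by more than 1.5 times.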
